A study of Mus musculus with 7 samples.

Results

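The genes described here encode splicing factors and proteins of the small nuclear ribonucleoprotein (snRNP) particles. They were chosen by current symbol: every gene that starts with Hnrnp or Snrp, and every gene named Srsf, Sf3a, Sf3b or Lsm with a number. Of 18194 genes measured on the arrays, 59 met this rule, through 162 probe sets that name 1 gene each. They were 10 SR protein genes (Srsf), 19 genes of heterogeneous nuclear ribonucleoproteins (Hnrnp), 9 genes of the SF3A and SF3B complexes (Sf3), 9 genes of snRNP proteins (Snrp) and 12 genes of LSM proteins (Lsm). A table of mouse protein-coding genes held 66 genes that fit the rule, and the other 7 (Hnrnpa1l2-ps2, Hnrnpa3, Lsm5, Snrpa, Snrpd1, Snrpd2 and Srsf7) had no probe set that names them alone and were not analysed here. RNA was taken from the colon of C57BL/6 mice, an inbred strain, and the labels name no treatment, mutation or transgene in any group. There was 1 array for each day from E13.5 to E18.5 of embryonic life (6 arrays) and 1 for the adult, 8 weeks after birth. The arrays were of the type Affymetrix Mouse Genome 430 2.0, where a probe set is a group of short oligonucleotides, and the values are log2 intensities normalized by RMA. No stage had a replicate, and how many animals gave RNA to an array is not given in the sources used here, so the only measure of error is the spread of the 6 embryonic arrays around a straight line.

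Introns are removed from transcripts by the spliceosome, which is built on each intron from U1, U2, U4, U5 and U6 snRNPs. Most of these particles carry a ring of Sm proteins, encoded by the Snrp genes, and U6 carries a ring of LSM proteins instead. SF3A and SF3B belong to the U2 snRNP and hold it at the branch site. SR proteins bind exons and recruit the spliceosome, and hnRNP proteins coat the new transcript and often act against SR proteins in the choice of splice sites. Most of these proteins are made in every cell type, in the colon as elsewhere, while a few, such as SmN, are known from neurons.

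The colon samples carried the markers of their tissue. All 9 epithelial markers, among them Epcam, Cdh1 and Cdx2, rose over the embryonic days, and the 9 summed to an intensity of 7650 on the E13.5 array, 23300 on the E18.5 array and 34400 on the adult array. The adult array stood apart in other lists as well. Its summed intensity was 3180 over 7 white blood cell markers, against 359 to 615 on the embryonic arrays, and 1230 over 3 markers of pancreas, against 116 to 162. Other lists changed along the embryonic days. The 5 red blood cell markers summed to 7480 at E13.5, 4860 at E15.5 and 163 at E18.5, and 3 of them fell. The 8 smooth muscle markers summed to 3880 at E13.5 and 11000 at E18.5, and 6 of them rose. The 8 markers of neurons and glia went from 1240 to 2320 over these days, with 4 rising, and stood at 929 in the adult, with 4 lower. For Gapdh, the log2 level at the 5′ end minus that at the 3′ end, which goes down when RNA is shortened, was −2.41 on the adult array and between −1.59 and −1.29 on the embryonic arrays. The median over all genes lay between 6.07 and 6.17 on the 7 arrays.

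Most splicing genes were highest in the youngest colon and lowest in the adult. By the limma fit, 30 of the 59 genes fell between E13.5 and E18.5 at a Benjamini-Hochberg adjusted p under 0.05, against 10.4% of all genes that fell. None rose, against 9.12% of all genes, although Snrpn and Hnrnpul2 had rising slopes at an unadjusted p under 0.05, a threshold at which all genes were not counted. Slopes were below 0 for 52 of the 59, as for 49.2% of all genes, and the median slope was −0.106 on the log2 scale per day, against 0.000874 over all genes. In the adult, 23 of the 59 were lower than the level that the embryonic line gives at E18.5, against 8.4% of all genes. Over all probe sets, such calls were more common at high levels than at low ones, as given below. Sf3a2 was the 1 gene that was higher in the adult by this fit, against 10.2% of all genes. With the further limit of at least 2-fold, Hnrnpa0, Lsm2 and Snrpf were lower, which is 3 genes against 3.26% of all genes, and none was higher, against 4.23%. The lower adult level came on top of an embryonic fall in 15 genes, where 3.44% of all genes had both calls, another 15 genes fell in the embryo alone, 8 were lower in the adult alone, and 20 had no call. Of all 18194 genes, 1258 fell in the embryo alone, 902 were lower in the adult alone and 12635 had no call.

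**Figure D1:**
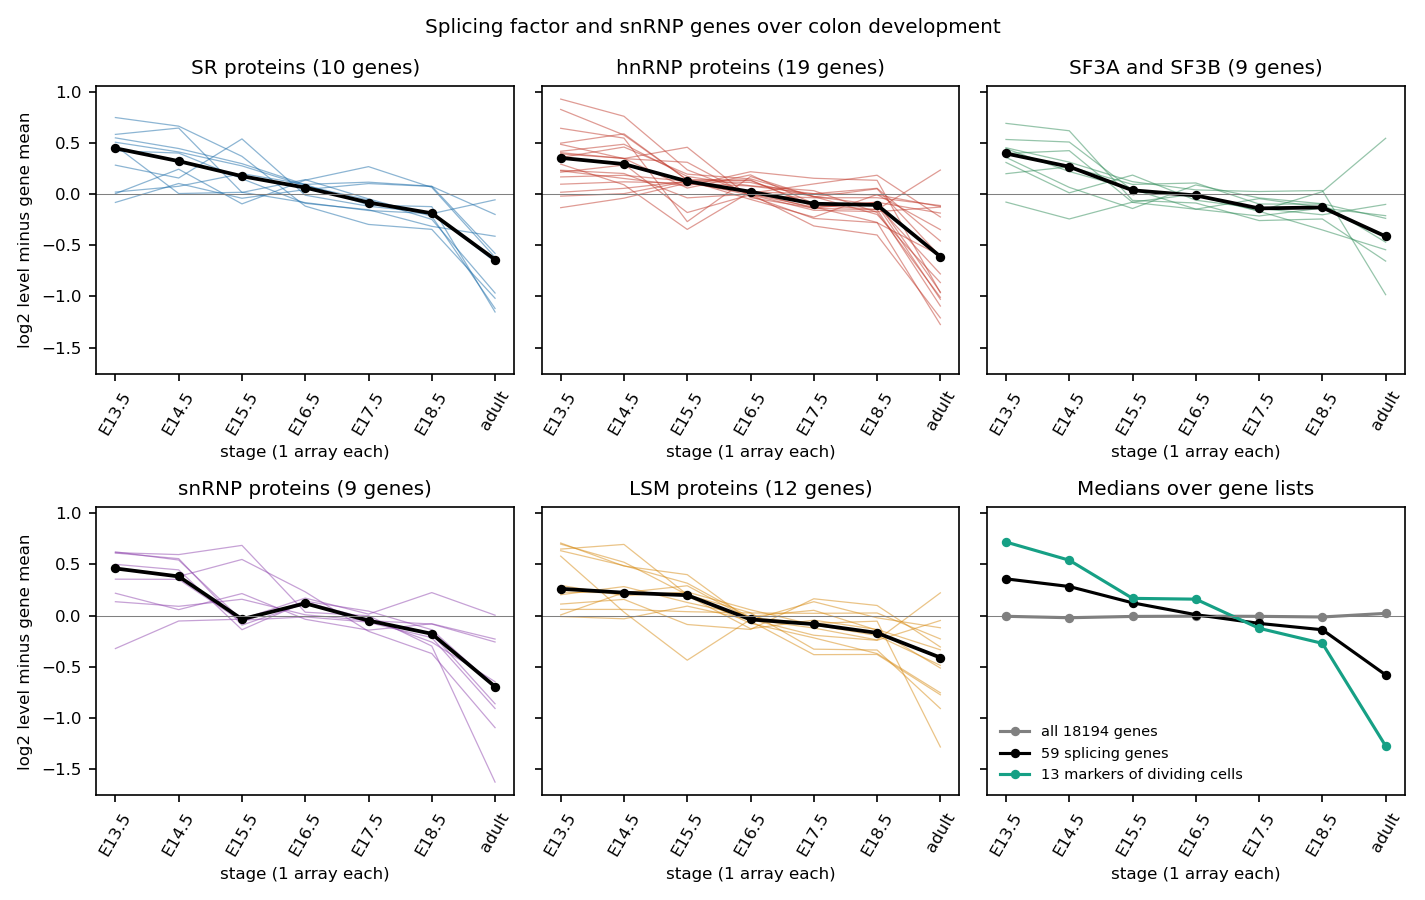
Log2 level minus the mean of the gene over 7 arrays, by stage, for the 59 splicing genes in their 5 families (thin lines, 1 gene each; black points, family median) and, at the bottom right, for medians over all 18194 genes, the 59 genes and 13 markers of dividing cells. The median of the 59 genes was 0.36 on the E13.5 array, −0.14 on the E18.5 array and −0.58 on the adult array, while the median of all genes stayed between −0.02 and 0.02.

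The fall was spread over the days rather than placed in 1 step. The median change of the 59 genes was −0.05 from E13.5 to E14.5, −0.17 to E15.5, −0.09 to E16.5, −0.13 to E17.5, −0.04 to E18.5 and −0.39 from E18.5 to the adult, and no gene changed by at least 2-fold between neighbouring embryonic days. The number of genes that were lower than the day before was 38 at E14.5, 42 at E15.5, 40 at E16.5, 50 at E17.5 and 43 at E18.5, and 52 were lower in the adult than at E18.5. Over all genes the shares that were lower at these steps were 53.1%, 46.0%, 45.3%, 48.3%, 47.2% and 41.5%. Levels went down at every one of the 6 steps in Hnrnpd, Hnrnpm, Lsm8, Sf3b1, Srsf10, Srsf11, Srsf3 and Srsf6, which is 8 of 59 genes against 1.9% of all genes. The adult held the lowest of the 7 values in 50 of 59 genes, against 24.2% of all genes, and the highest value stood at E13.5 or E14.5 in 44, against 27.4%. Between E13.5 and the adult, 27 of the 59 lost at least 2-fold, against 8.65% of all genes, and between E13.5 and E18.5 this was so for 5 (Hnrnpd, Hnrnpr, Srsf10, Lsm6 and Lsm8), against 2.41%. The adult array alone lay at least 2-fold below E18.5 in 5 genes (Snrpf, Lsm2, Hnrnpa0, Srsf3 and Sf3b5), against 3.84%. E15.5 lay below both of its neighbours in 16 genes, near the 31.4% of all genes that did the same.

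Rank order was read as well. The Spearman correlation with the order of the 7 stages was under −0.9 in 28 of 59 genes, against 7.73% of all genes, and above 0.9 in none, against 6.5%. Of the 28, 9 were also among the 1000 with the highest median absolute deviation of all genes past this limit in either direction, which is how development-related genes were defined: Hnrnpd, Hnrnpm, Hnrnpr, Lsm2, Lsm3, Lsm6, Sf3b1, Srsf10 and Srsf6. The definition was met by 5.5% of all genes, and the share within the 28 was near the 31.3% of all genes under −0.9 that met it.

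Markers of dividing cells moved the same way. Of 14 fixed markers, 13 were measured, 12 of these fell in the embryo and 9 were lower in the adult, and their summed intensity went from 12300 at E13.5 and 11700 at E14.5 through 8860, 9000, 7650 and 6800 on the next 4 days to 3560 in the adult. Their median centred level was 0.72 at E13.5 and −1.27 in the adult, a wider range than that of the splicing genes. In colon tissue, fewer cells of a type and less RNA per cell cannot be told apart, and over the same embryonic arrays the summed red blood cell markers went down while the summed epithelial, smooth muscle and nerve markers went up, as given above. The part of these cell types, of dividing cells, of RNA length or of white blood cell and pancreatic RNA in the result was not tested. With only 6 points to a line, the count of falling genes depended on single arrays: it was 17 when E13.5 was left out, 14 for E17.5, 14 for E18.5 and 39 for E15.5. It was 18 when each gene was read from its brightest probe set alone. The count of lower adult levels was 14 without E18.5 and 17 with the shift of each array by level removed.

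The shares of falling genes in the families were not tested against each other. In the embryo, 6 of 10 Srsf, 8 of 19 Hnrnp, 5 of 9 Sf3, 5 of 9 Snrp and 6 of 12 Lsm genes fell, where 10.4% of all genes did, and the median slopes were −0.13, −0.11, −0.093, −0.14 and −0.092 log2 per day in that order. The adult was called lower in 6 of 10 Srsf, 11 of 19 Hnrnp, 3 of 9 Snrp, 2 of 12 Lsm and 1 of 9 Sf3 genes, where 8.4% of all genes were, so that the Sf3 count was near the background. The families were not tested against each other here either, and the median adult difference from the line was −0.63, −0.62, −0.58, −0.31 and −0.17 for Srsf, Hnrnp, Snrp, Lsm and Sf3.

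**Figure D2:**
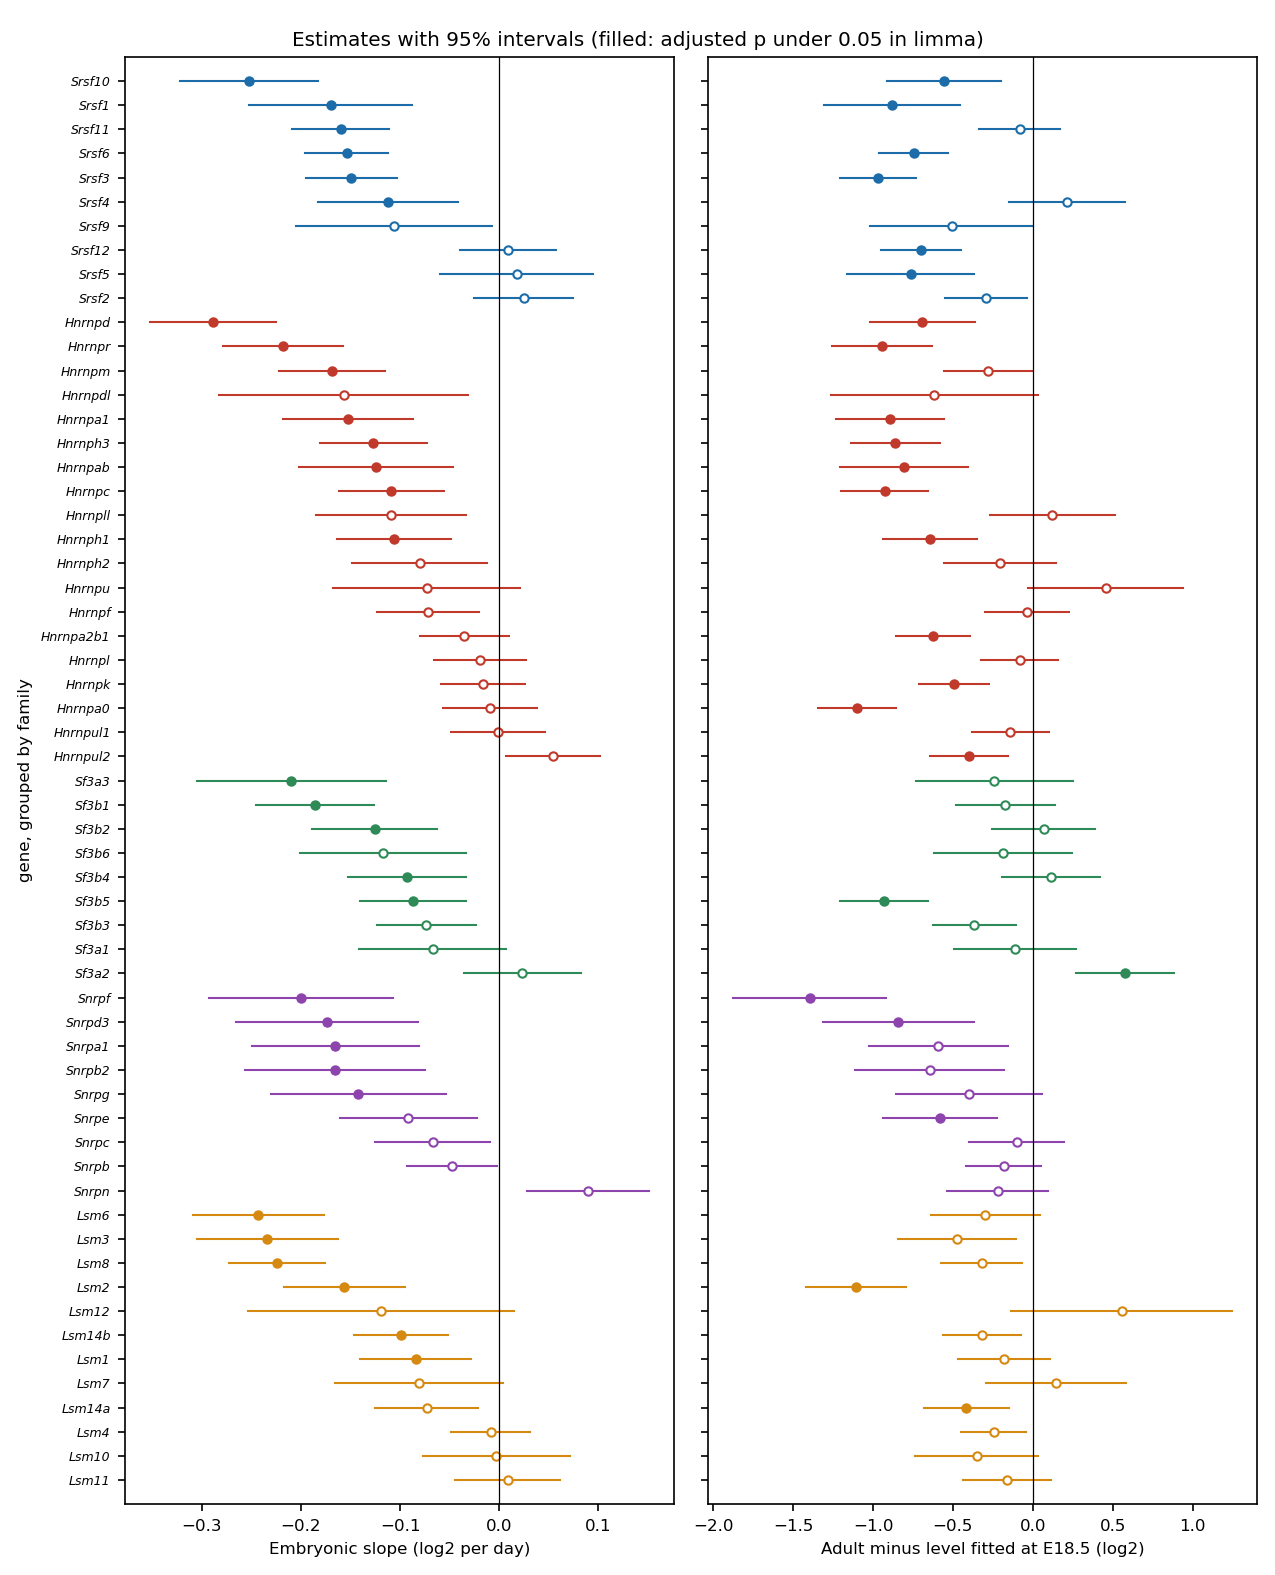
Embryonic slope in log2 units per day (left) and adult level minus the level fitted at E18.5 in log2 units (right) for each of the 59 genes, grouped and coloured by family, with 95% intervals from limma; filled points have an adjusted p under 0.05. Filled points lie left of 0 for 30 slopes and for 23 adult differences, and Sf3a2 is the 1 filled point right of 0.

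In each family 1 gene had the largest falling slope: Srsf10, Hnrnpd, Sf3a3, Snrpf and Lsm6. The sequence around their start sites is shown here because these genes fell together, as 300 bases on the gene strand, 250 before and 50 after a start that RefSeq annotates on GRCm38.p6. The start was the outermost one of the gene in Sf3a3, Snrpf and Lsm6, and lay 319 bases inside it in Srsf10 and 192 bases inside it in Hnrnpd. Capitals mark matches, on either strand, to an ETS factor core spelled CCGGAA, to CGCGAGA as it occurs in a known promoter palindrome, to a motif of the YY1 type spelled GATGGCG, to the box named after its letters CCAAT, and to a GC box spelled GGGCGG. Matches of different motifs may overlap. The windows are chr4:135855821-135856120 (plus strand) for Srsf10, chr5:99978889-99979188 (minus) for Hnrnpd, chr4:124714611-124714910 (plus) for Sf3a3, chr10:93589609-93589908 (minus) for Snrpf and chr8:78821103-78821402 (minus) for Lsm6.
Srsf10: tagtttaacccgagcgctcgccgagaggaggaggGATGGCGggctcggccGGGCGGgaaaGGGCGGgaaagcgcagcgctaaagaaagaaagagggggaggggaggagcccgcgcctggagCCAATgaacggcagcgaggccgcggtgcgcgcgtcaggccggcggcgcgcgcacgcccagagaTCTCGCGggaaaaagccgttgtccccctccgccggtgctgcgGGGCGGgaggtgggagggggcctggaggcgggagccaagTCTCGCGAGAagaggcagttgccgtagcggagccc
Hnrnpd: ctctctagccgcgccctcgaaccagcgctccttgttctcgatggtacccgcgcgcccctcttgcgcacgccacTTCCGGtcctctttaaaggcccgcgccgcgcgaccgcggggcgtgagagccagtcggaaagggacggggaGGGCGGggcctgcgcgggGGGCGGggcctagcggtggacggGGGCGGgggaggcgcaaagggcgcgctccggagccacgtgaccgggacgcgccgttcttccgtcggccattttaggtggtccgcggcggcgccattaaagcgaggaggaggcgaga
Sf3a3: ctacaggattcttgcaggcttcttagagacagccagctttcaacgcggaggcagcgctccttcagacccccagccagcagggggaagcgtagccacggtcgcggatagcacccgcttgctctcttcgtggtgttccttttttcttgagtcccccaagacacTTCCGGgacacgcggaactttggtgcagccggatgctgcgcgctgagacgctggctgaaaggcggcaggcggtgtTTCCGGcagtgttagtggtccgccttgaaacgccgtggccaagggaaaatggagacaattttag
Snrpf: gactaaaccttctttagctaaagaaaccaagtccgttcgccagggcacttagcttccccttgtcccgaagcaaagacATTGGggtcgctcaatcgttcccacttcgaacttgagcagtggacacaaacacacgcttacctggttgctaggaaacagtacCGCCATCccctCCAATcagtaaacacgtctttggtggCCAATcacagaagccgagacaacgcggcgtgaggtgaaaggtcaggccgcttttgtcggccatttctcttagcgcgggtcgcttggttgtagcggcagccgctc
Lsm6: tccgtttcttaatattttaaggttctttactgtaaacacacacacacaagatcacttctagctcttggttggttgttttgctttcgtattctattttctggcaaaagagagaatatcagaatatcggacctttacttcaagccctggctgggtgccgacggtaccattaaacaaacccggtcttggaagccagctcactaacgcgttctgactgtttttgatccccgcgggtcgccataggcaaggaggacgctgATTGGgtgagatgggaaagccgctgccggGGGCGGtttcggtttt

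The 5 windows shared no single motif. Srsf10 held 3 matches to CGCGAGA, 2 of them overlapping in a palindrome, beside 3 to GGGCGG, 1 to GATGGCG and 1 to CCAAT. Hnrnpd held 1 match to CCGGAA and 3 to GGGCGG, and Sf3a3 held 2 to CCGGAA alone. Snrpf held 3 matches to CCAAT and 1 to GATGGCG, and Lsm6 held 1 to CCAAT and 1 to GGGCGG. At least 1 window was at hand for 51 of the 59 genes, with 69 windows in all, and the same letters were counted over these genes. The 17491 protein-coding genes they are set against had 21262 windows. CCGGAA was found in 23 of 51 splicing genes (45.1%) and in 20.9% of 17491 protein-coding genes, and CGCGAGA in 11 of 51 (21.6%) and in 3.93%. GGGCGG was found in 37 of 51 (72.5%) against 49.2%, GATGGCG in 6 (11.8%) against 4.95%, CCAAT in 26 (50.98%) against 42.3% and TATAAA in 6 (11.8%) against 14.8%. CGCGAGA stood in 9 of the 27 falling genes that had a window and in 2 of the 24 that were not called, and CCGGAA in 11 and 12 of them. None of these motif counts was tested against another. The median GC content was 61% in the windows of the splicing genes and 56.3% in those of protein-coding genes. These matches describe the sequence, and binding was not measured.

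The snRNP proteins fell in 5 of 9 genes. Snrpf encodes SmF, a member of the heptameric Sm ring. Its log2 level was 10.78, 10.76, 10.85, 10.20, 10.16 and 9.87 over the 6 embryonic days and 8.54 in the adult. The first 3 days were the highest, and the adult value was far below every embryonic one. The slope was −0.20 per day (SE 0.039, adjusted p = 0.0145), and the adult stood −1.40 (SE 0.20, adjusted p = 0.00423) from the line, the largest adult difference of the 59 genes. From E13.5 to the adult the level went down 4.73-fold.

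Snrpd3, the gene of SmD3, read 9.36, 9.28, 9.44, 9.13, 8.74 and 8.52 over the 6 embryonic days and 7.80 in the adult, with a slope of −0.17 per day (SE 0.039, adjusted p = 0.0225) and an adult difference of −0.84 (SE 0.20, adjusted p = 0.0280). Among the other Sm ring genes, Snrpg fell, with 11.89 at E13.5 and 10.75 in the adult, and Snrpe was called lower in the adult alone, with 12.15 and 11.10 at the same stages. Snrpb, which encodes SmB, had no call. It read 10.12, 10.07, 10.14, 9.99, 9.93 and 9.90 over the 6 embryonic days and 9.72 in the adult, and neither its slope (−0.047 per day, SE 0.019, adjusted p = 0.144) nor its adult difference (−0.18, SE 0.10, adjusted p = 0.274) passed. Snrpn encodes SmN, which takes the place of SmB in neurons, and is expressed from the paternal allele. It read 6.69, 6.96, 6.98, 7.19, 7.03 and 7.24 over the 6 embryonic days and 7.02 in the adult. It was lowest at E13.5, and its slope of 0.090 per day (SE 0.026, adjusted p = 0.0536) was the largest upward one of the 59 genes but did not pass. It was called with the shift of each array by level removed (0.10). It was also called with the mean over probe sets, at the same slope of 0.090. Snrpn has 1 probe set, so its own values were unchanged there and only those of other genes differed.

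Both U2 particle genes fell in the embryo. Snrpa1 encodes a U2 protein, and its levels were 9.56, 9.48, 8.89, 8.93, 8.88 and 8.76 over the 6 embryonic days and 8.08 in the adult. Snrpb2 encodes the U2 protein that pairs with it on U2 snRNA, and its levels were 10.76, 10.70, 10.05, 10.27, 10.08 and 9.93 over the 6 embryonic days and 9.24 in the adult. In both genes the values at E13.5 and E14.5 stood above all later ones and the adult was the lowest. The slopes were −0.17 per day (SE 0.035, adjusted p = 0.0199) and −0.17 per day (SE 0.038, adjusted p = 0.0254). Their adult differences of −0.59 (SE 0.18, adjusted p = 0.0687) and −0.65 (SE 0.20, adjusted p = 0.0661) did not pass. Snrpc, a U1 protein, read 7.41 at E13.5 and 6.96 in the adult and had no call. The snRNP count was sensitive to the arrays used: 2 genes of the family were called without E13.5, 3 without E16.5, and none without E14.5, without E17.5 or without E18.5. The brightest probe set alone called 1 of them, and a slope fitted through the rank order of the 7 stages called 8. Probe sets without the suffixes _s_at, _x_at and _a_at called 3. Snrpa1, Snrpb and Snrpe have no probe set without such a suffix and were not measured in that setting. The adult difference of Snrpd3 was not called when E14.5, E16.5, E17.5 or E18.5 was left out, with values between −0.80 and −0.98. Both calls of Snrpd3 were lost at smaller sizes on its brightest probe set (slope −0.097, adult difference −0.38) and with the shift of each array by level removed (−0.15 and −0.75). On the brightest probe set the slopes of Snrpa1 (−0.15) and Snrpb2 (−0.085) did not pass. Without suffixed probe sets, the slope of Snrpb2 was −0.070 and did not pass, and its adult difference turned to 0.20. Snrpb2 is read there by 1 probe set, with a mean level of 5.24. The adult differences of both genes passed once the array medians were set equal (−0.63 and −0.68).

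SF3A and SF3B bind beside the branch site in the U2 snRNP, and Sf3b1 encodes the largest SF3B subunit, which closes around the branch point. Sf3a3 had the steepest slope of this family. It read 8.21, 8.14, 7.46, 7.43, 7.26 and 7.28 over the 6 embryonic days and 6.86 in the adult. The largest embryonic step was the drop from E14.5 to E15.5, and the adult value was the lowest. The slope was −0.21 per day (SE 0.040, adjusted p = 0.0135), and the adult was not called different from the line (−0.24, SE 0.21, adjusted p = 0.513). Sf3b1 read 10.32, 10.30, 9.83, 9.78, 9.62 and 9.44 over the 6 embryonic days and 9.24 in the adult and went down at every step. Its slope was −0.19 per day (SE 0.025, adjusted p = 0.00440) and its adult difference −0.17 (SE 0.13, adjusted p = 0.451). The slope turned to 0.026 on the brightest probe set of Sf3b1 and was not called there. The adult difference turned to 0.056 with the shift of each array by level removed and was called at −0.51 without suffixed probe sets.

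Sf3b2, whose product binds that of Sf3b4, read 7.67, 7.45, 7.28, 7.08, 7.01 and 7.09 over the 6 embryonic days and 7.02 in the adult. Its slope was −0.13 per day (SE 0.026, adjusted p = 0.0184) and its adult difference 0.067 (SE 0.14, adjusted p = 0.814). Sf3b4 moved less, with 6.53 at E13.5, 6.02 on the last embryonic day and 6.12 in the adult, and had a slope of −0.093 per day (SE 0.025, adjusted p = 0.0421). Sf3b5, the smallest SF3B subunit, was the only gene of the family called lower in the adult, where it read 7.53 after 8.55 at E18.5. Sf3a2 went against the rest. It read 7.36, 7.19, 7.36, 7.44, 7.27 and 7.46 over the 6 embryonic days and 7.98 in the adult, so that the adult value was above all 6 embryonic ones. Its embryonic slope was 0.023 per day (SE 0.025, adjusted p = 0.610), and its adult difference was 0.58 (SE 0.13, adjusted p = 0.0229), the only higher adult call among the 59 genes. Sf3a1, Sf3b3 and Sf3b6 had no call, and their levels in the adult were below those at E13.5. The adult call of Sf3a2 was lost without E17.5 (0.52) and without E18.5 (0.64). The number of falling Sf3 genes was 1 without E13.5 and without E17.5, 3 without E14.5, without E16.5 and without E18.5, and 7 without E15.5. It was 3 by the brightest probe set and 3 without suffixed probe sets. Sf3a2 has only suffixed probe sets and was not measured without them. The calls of Sf3a3 (−0.19 and −0.20), Sf3b2 (−0.098 and −0.12) and Sf3b4 (−0.075 and −0.091) were among those lost without E13.5 and without E17.5. On the brightest probe set the slopes of Sf3b2 (−0.053) and Sf3b4 (−0.15) did not pass, nor did they without suffixed probe sets (−0.11 and −0.15). The adult difference of Sf3b2 turned to −0.22 and −0.30 under these settings.

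SR proteins have an RNA-binding domain and a tail of arginine and serine repeats. Srsf10, known to hold back splicing when it loses phosphate, as in heat shock and mitosis, had the steepest slope of the family. Its levels were 9.23, 9.14, 8.85, 8.36, 8.18 and 8.14 over the 6 embryonic days and 7.46 in the adult, lower at each step. The slope was −0.25 per day (SE 0.029, adjusted p = 0.00276), and the level fell 3.40-fold from E13.5 to the adult. Its adult difference of −0.56 (SE 0.15, adjusted p = 0.0451) was close to the threshold and was lost without E13.5, E14.5, E17.5 or E18.5, with values between −0.43 and −0.61.

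Srsf1, the founding SR protein, read 11.34, 11.40, 10.77, 10.90, 10.71 and 10.54 over the 6 embryonic days and 9.64 in the adult, and Srsf3, the smallest one, read 11.09, 10.99, 10.84, 10.64, 10.44 and 10.42 over the 6 embryonic days and 9.39 in the adult. In both the adult array lay well under E18.5. The slope was −0.17 per day (SE 0.035, adjusted p = 0.0167) in Srsf1 and −0.15 per day (SE 0.019, adjusted p = 0.00381) in Srsf3, and the adult differences were −0.88 (SE 0.18, adjusted p = 0.0163) and −0.97 (SE 0.10, adjusted p = 0.00104). Srsf6 read 10.57, 10.47, 10.34, 10.15, 10.01 and 9.82 over the 6 embryonic days and 9.10 in the adult, with a slope of −0.15 per day (SE 0.018, adjusted p = 0.00271) and an adult difference of −0.74 (SE 0.091, adjusted p = 0.00217). Srsf11 fell in the embryo and then stayed near its E18.5 level. It read 7.62, 7.60, 7.35, 7.11, 7.05 and 6.88 over the 6 embryonic days and 6.79 in the adult, with a slope of −0.16 per day (SE 0.021, adjusted p = 0.00371) and an adult difference of −0.082 (SE 0.11, adjusted p = 0.687). On the brightest probe set alone the slopes of Srsf1 (−0.058), Srsf3 (−0.069) and Srsf11 (−0.088) were smaller and none of the 3 passed. The slope call of Srsf1 was also lost when E13.5 (−0.18), E17.5 (−0.17) or E18.5 (−0.18) was left out, and its adult call when E17.5 (−0.87) or E18.5 (−0.86) was.

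The slopes of 4 SR genes were not called. Srsf5 read 11.42, 11.66, 11.32, 11.55, 11.68 and 11.48 over the 6 embryonic days and 10.80 in the adult, with no call of a slope (0.017 per day, SE 0.033, adjusted p = 0.790) and a lower adult (−0.76, SE 0.17, adjusted p = 0.0217), a call that was lost without E16.5 (−0.76) and without E17.5 (−0.69). Srsf12, a relative of Srsf10, was dim throughout, at 4.80, 4.85, 4.98, 4.87, 4.89 and 4.85 over the 6 embryonic days and 4.20 in the adult, and was lower in the adult alone (−0.70, SE 0.11, adjusted p = 0.00517). Srsf2 encodes SC35, which marks nuclear speckles. It read 9.08, 9.27, 9.12, 9.21, 9.26 and 9.24 over the 6 embryonic days and 8.96 in the adult, with a slope of 0.025 per day (SE 0.021, adjusted p = 0.508) and an adult difference of −0.29 (SE 0.11, adjusted p = 0.115), neither of which passed. Srsf4 fell, with 7.72 at E13.5, 7.06 on the last embryonic day and 7.20 in the adult, and Srsf9 had no call, with 8.72, 8.26 and 7.78 at these stages. The direction of the Srsf2 slope depended on the probe sets. It was −0.064 on the brightest one, −0.018 on their mean and −0.067 without suffixed probe sets. The adult difference of Srsf2 was called at −0.64 on the brightest probe set and was 0.081 without suffixed probe sets.

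The hnRNP family held both the steepest slope of all 59 genes and several of the flattest. Hnrnpd encodes AUF1, which binds AU-rich elements and is known for mRNA decay. Its levels were 7.52, 7.35, 6.83, 6.59, 6.28 and 6.19 over the 6 embryonic days and 5.38 in the adult, lower at every step, with a slope of −0.29 per day (SE 0.027, adjusted p = 0.00151) and a loss of 4.40-fold from E13.5 to the adult. Hnrnpr, a relative of Syncrip, read 9.27, 9.02, 8.58, 8.58, 8.32 and 8.17 over the 6 embryonic days and 7.17 in the adult. Hnrnpm, a regulator of alternative exons, read 10.01, 9.87, 9.84, 9.51, 9.29 and 9.25 over the 6 embryonic days and 8.93 in the adult. Their slopes were −0.22 per day (SE 0.025, adjusted p = 0.00281) and −0.17 per day (SE 0.023, adjusted p = 0.00419). Hnrnpr was lower in the adult (−0.94, SE 0.13, adjusted p = 0.00373). The difference turned to 0.082 without suffixed probe sets, where Hnrnpr is read by its dimmest probe sets, with means of 4.76 and 5.38. Its 3 other probe sets were each called lower in the adult (−0.94, −1.15 and −1.10). Hnrnpm had no adult call (−0.28, SE 0.12, adjusted p = 0.156). The slopes of Hnrnpd and Hnrnpr did not pass on the brightest probe set alone (−0.065 and −0.053). That probe set of Hnrnpd read 9.32 at E13.5 and 8.90 in the adult. Hnrnpd was called lower in the adult (−0.69). The call was lost on the brightest probe set (−0.17), on the mean over probe sets (−0.28) and without suffixed probe sets (−0.33). It was also lost without probe sets with a mean level under 6 (−0.43) and without E18.5 (−0.56).

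Among the core hnRNP proteins, Hnrnpa1, which favours exon skipping, read 10.99, 11.08, 10.63, 10.62, 10.38 and 10.34 over the 6 embryonic days and 9.39 in the adult. Its slope was −0.15 per day (SE 0.028, adjusted p = 0.0112), a call lost without E18.5 (−0.17), and its adult difference was −0.90 (SE 0.14, adjusted p = 0.00628). Hnrnpc, whose product measures transcript length and masks uridine tracts, read 10.34, 10.44, 10.18, 10.13, 9.96 and 9.88 over the 6 embryonic days and 8.96 in the adult. It fell (−0.11 per day, SE 0.022, adjusted p = 0.0168) and was lower in the adult (−0.93, SE 0.11, adjusted p = 0.00230). The slope call was lost when E17.5 (−0.11) or E18.5 (−0.11) was left out, and both calls were lost without suffixed probe sets (−0.079 and −0.63).

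Hnrnph1, Hnrnph3 and Hnrnpab fell in the embryo and were lower again in the adult. At E13.5 they read 11.23, 10.91 and 9.16, and the adult levels were 10.05, 9.49 and 7.79. Hnrnph1 and Hnrnph3 encode binders of guanine runs.

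In 4 hnRNP genes the embryonic slope was not called and the adult was lower. Hnrnpa0 read 12.07, 11.99, 11.92, 12.06, 11.996 and 11.98 over the 6 embryonic days and 10.88 in the adult. The 6 embryonic values lay between 11.92 and 12.07, and the adult stood −1.10 (SE 0.10, adjusted p = 0.000690) from the line. Hnrnpa2b1 read 12.09, 12.10, 12.04, 12.03, 11.89 and 11.97 over the 6 embryonic days and 11.31 in the adult, with an adult difference of −0.63 (SE 0.10, adjusted p = 0.00584). Hnrnpk, which binds cytosine-rich sequence, read 12.47, 12.49, 12.48, 12.45, 12.37 and 12.43 over the 6 embryonic days and 11.91 in the adult, with an adult difference of −0.49 (SE 0.091, adjusted p = 0.0114). The adult call of Hnrnpk was lost on the brightest probe set (−0.42) and with the shift of each array by level removed (−0.27).

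Hnrnpul2 read 10.15, 10.25, 10.39, 10.30, 10.39 and 10.47 over the 6 embryonic days and 10.06 in the adult and was lower in the adult by −0.40 (SE 0.10, adjusted p = 0.0388), a call lost in each fit that left out an embryonic array except E15.5, with values between −0.41 and −0.38. It was also lost at smaller sizes on the brightest probe set (−0.22) and with the shift of each array by level removed (−0.17). Hnrnpu, the scaffold attachment factor SAF-A, had no call, with 11.43, 11.23, 10.79, 11.16, 10.996 and 10.98 over the 6 embryonic days and 11.37 in the adult. Its adult difference of 0.46 (SE 0.20, adjusted p = 0.188) was called at −0.51 on its brightest probe set and at 0.68 with the shift of each array by level removed. No call was made for Hnrnpdl, Hnrnpf, Hnrnph2 or Hnrnpll either, although the adult level of each was below that at E13.5. The least variable hnRNP genes were Hnrnpul1 at 8.38, 8.41, 8.53, 8.42, 8.41 and 8.39 over the 6 embryonic days and 8.28 in the adult and Hnrnpl at 5.96, 6.000, 6.07, 5.93, 5.91 and 5.91 over the 6 embryonic days and 5.83 in the adult. Over the family, the number of falling genes was 5 without E17.5 and 3 without E18.5, in place of 8.

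LSM proteins differ by the ring they belong to. The Lsm2 to Lsm8 ring sits on U6 snRNA in the nucleus, and with Lsm1 in place of Lsm8 the ring works in mRNA decapping in the cytoplasm. Of the 7 ring genes measured, 5 fell, and 1 was lower in the adult. Lsm6 read 7.88, 7.65, 7.57, 7.12, 6.79 and 6.79 over the 6 embryonic days and 6.40 in the adult, Lsm3 read 9.92, 9.96, 9.47, 9.30, 8.94 and 8.93 over the 6 embryonic days and 8.36 in the adult and Lsm8, which is found in the nuclear ring alone, read 7.83, 7.66, 7.34, 7.06, 6.92 and 6.76 over the 6 embryonic days and 6.38 in the adult. All 3 went down over the embryonic days, and the adult was the lowest of the 7 stages in each. Their slopes were −0.24 per day (SE 0.028, adjusted p = 0.00266), −0.23 per day (SE 0.030, adjusted p = 0.00371) and −0.22 per day (SE 0.020, adjusted p = 0.00145).

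Lsm2 read 8.12, 7.98, 7.81, 7.47, 7.41 and 7.44 over the 6 embryonic days and 6.21 in the adult, with a slope of −0.16 per day (SE 0.026, adjusted p = 0.00794), a call lost without E13.5 (−0.15), and an adult difference of −1.11 (SE 0.13, adjusted p = 0.00197). Lsm1, the cytoplasmic ring member, read 7.01, 7.002, 6.97, 6.65, 6.74 and 6.64 over the 6 embryonic days and 6.45 in the adult. Its slope of −0.084 per day (SE 0.024, adjusted p = 0.0495) lay at the threshold and was lost in every fit that left out an embryonic array other than E15.5, with values between −0.096 and −0.079, and on the brightest probe set (−0.12). Lsm4 was nearly level, at 9.39 on E13.5, 9.35 on E18.5 and 9.10 in the adult, and Lsm7 read 7.85, 7.60 and 7.79. Lsm12 had no call, with 5.92, 5.10 and 5.56. Lsm10 and Lsm11 belong to the U7 snRNP, which trims histone transcripts. Neither was called: Lsm10 read 6.94 at E13.5 and 6.52 in the adult, and Lsm11 read 6.55, 6.53, 6.65, 6.52, 6.70 and 6.54 over the 6 embryonic days and 6.44 in the adult. Of the Lsm14 proteins, which repress translation in granules, Lsm14b fell, with 11.66 at E13.5 and 10.88 in the adult, and Lsm14a was called lower in the adult, at 8.90 after 9.27 at E18.5.

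Close relatives did not always move together. Of 16 pairs of related genes, 13 were measured, and the slope of the log2 difference between the members of a pair was tested by an exact permutation test over the 720 orders of the 6 embryonic arrays, two-sided, with Benjamini-Hochberg adjustment over the 13 pairs. The slopes differed in 5 pairs. Hnrnpul2 gained 0.055 per day on Hnrnpul1 (SE 0.0085, exact permutation p = 0.00278, adjusted p = 0.0181, the smallest p the orders allow), although the 2 probe sets of Hnrnpul2 had slopes of 0.12 and −0.011. Snrpn gained 0.14 per day on Snrpb (SE 0.027, exact permutation p = 0.0139, adjusted p = 0.0433). Hnrnpa2b1 gained 0.12 per day on Hnrnpa1 (SE 0.024, exact permutation p = 0.0111, adjusted p = 0.0433). Srsf5 gained 0.17 per day on Srsf6 (SE 0.037, exact permutation p = 0.0167, adjusted p = 0.0433). The other pair was Srsf12 and Srsf10, with a difference of 0.26 per day (SE 0.033, exact permutation p = 0.00278, adjusted p = 0.0181). Srsf12 was read by 1 probe set with a mean log2 level of 4.78, and whether that level was above background was not measured, so the difference may hold no more than the slope of Srsf10 itself.

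**Figure D3:**
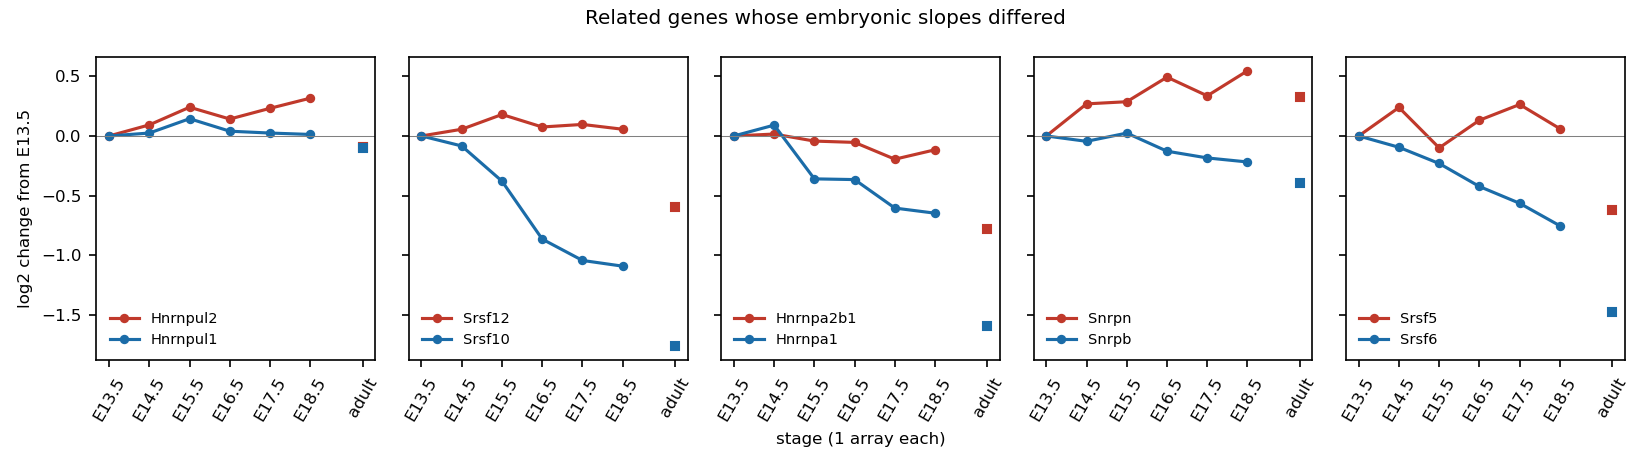
Log2 change from E13.5 by stage (lines, embryonic arrays; squares, adult array) in the 5 pairs of related genes whose slopes differed by the exact permutation test. Srsf10, Hnrnpa1 and Srsf6 end the embryonic series at −1.09, −0.65 and −0.75, below Srsf12, Hnrnpa2b1 and Srsf5, and Snrpn ends at 0.55 above its start.

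The other 8 pairs did not pass, with adjusted p between 0.169 and 0.536 by the same exact permutation test, which does not show that their members moved alike. The difference between Srsf9 and Srsf1 changed by 0.064 per day (SE 0.087), that between Hnrnpr and Syncrip by −0.066 (SE 0.064), and that between Hnrnpdl and Hnrnpd by 0.13 (SE 0.055). With 1 embryonic array left out, 3 pairs passed without E16.5 and none in the other 5 cases, where 5 arrays leave few orders. On the brightest probe sets 3 pairs passed, and 1, Hnrnpul2 and Hnrnpul1, passed when probe sets with a mean level under 6 were left out, an alternative chosen after seeing the data. Srsf12 is not measured in that setting, and the differences of Snrpn, Hnrnpa2b1 and Srsf5 from their relatives were as before, with an adjusted p of 0.05 each by the exact permutation test. Snrpn, Srsf5, Srsf12 and Hnrnpul1 were each read by 1 probe set.

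Separate probe sets of a gene mostly agreed in direction. Of the 162 probe sets, 65 fell, against 9.55% of all probe sets, and 1 rose, against 7.24%, and 149 slopes were below 0. The adult was lower in 55, against 8.84%, and higher in 2, against 8.4%. Among the 41 genes with several probe sets, every slope was below 0 in 32, both signs occurred in 8, and no gene had slopes called in opposite directions. The 1 probe set that rose was of Hnrnpul2 (slope 0.12), whose other probe set had a slope of −0.011. Hnrnpab had adult calls in both directions: 4 of its 7 probe sets were lower in the adult, and the dimmest, with a mean level of 4.99, was higher by 0.61. Sf3b1 had the widest range, from −0.27 to 0.026, and the probe set that did not fall was its brightest, with a mean of 11.55. In Srsf1, 2 of 7 probe sets fell and 5 were lower in the adult.

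**Figure D4:**
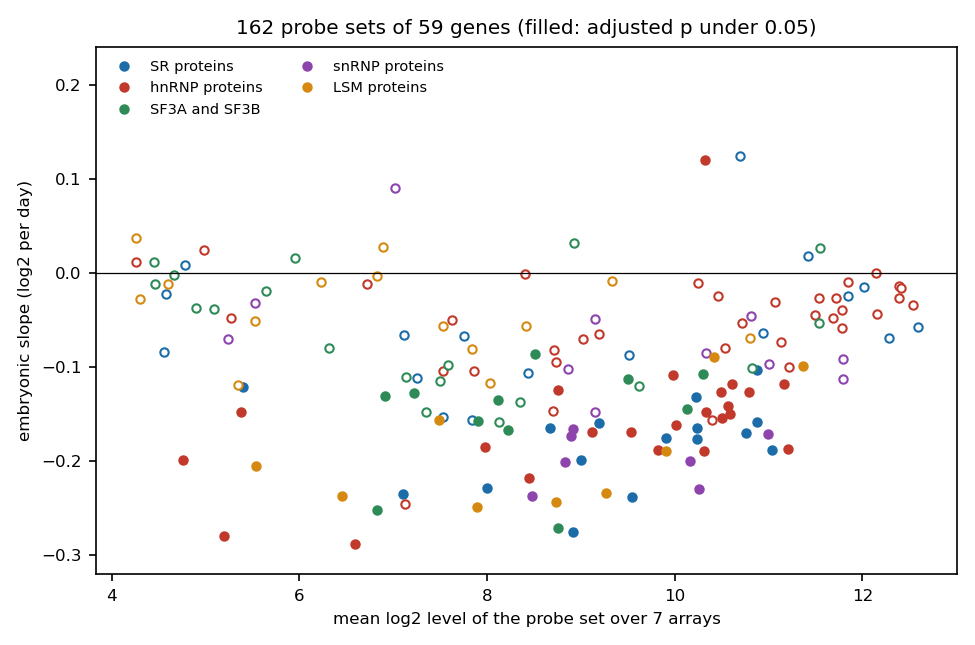
Embryonic slope in log2 units per day against the mean log2 level over the 7 arrays, for each of the 162 probe sets of the 59 genes, coloured by family; filled points have an adjusted p under 0.05. Most points lie below 0, and none of the 9 probe sets with a mean level of 12 or more is filled.

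The level of a probe set went with the calls. With a mean log2 level under 6, 5 of 25 probe sets of splicing genes fell, against 2.75% of all probe sets at that level. From 6 to 8 it was 11 of 32 against 12.5%, from 8 to 10 it was 24 of 42 against 20.9%, and from 10 to 12 it was 25 of 54 against 17.9%. At 12 or above none of 9 fell, against 2.48%. Hnrnpk, Hnrnpa2b1, Srsf1 and Hnrnpu were among the genes with probe sets at this level. Lower adult calls went with level too. From the dimmest level to the brightest, they were 1 of 25, 5 of 32, 14 of 42, 30 of 54 and 5 of 9 probe sets of splicing genes. Over all probe sets the shares at these levels were 1%, 8.75%, 22.4%, 31.3% and 22.7%.

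Other parts of the splicing apparatus were read from lists of genes that the symbol rule does not cover. The last of the lists holds decapping and decay proteins instead, with 11 genes measured, of which 5 fell. Over 7 lists, 141 of 149 genes were measured, 51 of these fell and 6 rose in the embryo, where 10.4% and 9.12% of all genes did, and 29 were lower and 2 higher in the adult, where 8.4% and 10.2% of all genes were. The count of falling genes was 21 with E13.5 left out, 24 for E14.5, 23 for E17.5 and 28 for E18.5, and there were 3 rising genes when E13.5 was left out. The lists were not tested against each other. Of the proteins that build snRNPs, 9 of 14 fell, with a median slope of −0.13 per day, and 5 were lower in the adult. Among them, Gemin2, a partner of SMN in loading Sm rings, went from 6.75 on the youngest array to 5.78 before birth, with a slope of −0.21 per day (SE 0.025, adjusted p = 0.00302), and Coil, the scaffold of Cajal bodies, went from 8.03 to 6.96, with a slope of −0.21 per day (SE 0.030, adjusted p = 0.00488). Prmt5, which methylates Sm proteins, read 8.92, 8.94, 9.37, 8.52, 8.36 and 8.10 over the 6 embryonic days and 7.05 in the adult, and its adult difference was −1.17 (SE 0.32, adjusted p = 0.0449).

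Of the proteins of the tri-snRNP and other snRNPs, 8 of 20 fell and 1 was lower in the adult, a share of 5% that is under that of all genes. Snrnp48, of the U11 and U12 particle, had a slope of −0.22 per day (SE 0.025, adjusted p = 0.00262), and Eftud2, the U5 GTPase, one of −0.19 per day (SE 0.023, adjusted p = 0.00281). With the Snrnp genes counted as members of the Snrp family, the number of falling splicing genes was 33. Of the proteins that recognize the branch and splice sites, 8 of 17 fell and 5 were lower in the adult, with the largest slopes in Luc7l, a U1-associated protein (−0.19 per day, SE 0.024, adjusted p = 0.00343), and Ddx42, a helicase that binds SF3B (−0.16 per day, SE 0.032, adjusted p = 0.0172). Of the proteins of the catalytic steps, 10 of 24 fell, 2 were lower and 1 was higher in the adult, with the largest slopes in Crnkl1 (−0.19 per day, SE 0.027, adjusted p = 0.00540) and Cwc22 (−0.16 per day, SE 0.028, adjusted p = 0.00918).

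Kinases of SR proteins and SR-related proteins fell in 6 of 22 genes, among them Srrm2, a scaffold of nuclear speckles (slope −0.20 per day, SE 0.028, adjusted p = 0.00501), and Acin1, which joins the exon junction complex (slope −0.14 per day, SE 0.024, adjusted p = 0.00832). In the adult 6 were lower and 1 higher, with the largest difference in Tra2a, an SR-like activator of exons, at −1.22 (SE 0.13, adjusted p = 0.00134). Of the decapping and decay proteins, which act with the Lsm1 ring, 5 of 11 fell and 1 was lower in the adult, which is near the share of all genes. Ddx6, the decapping helicase, read 8.69, 8.49, 8.39, 7.67, 7.59 and 7.37 over the 6 embryonic days and 6.79 in the adult (slope −0.29 per day, SE 0.033, adjusted p = 0.00281), and Cnot6, a deadenylase, had a slope of −0.19 per day (SE 0.027, adjusted p = 0.00487).

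Regulators of splicing that are typical of certain tissues had no common direction in the embryo. Of 33 genes, 5 fell and 6 rose there, where 10.4% and 9.12% of all genes did, and the median slope was 0.0039. In the adult 9 were lower and 0 higher, where 8.4% and 10.2% of all genes were. The 6 that rose were Esrp1 and Esrp2, the regulators of epithelial splicing, Rbfox1 and Rbfox3 of neurons, Celf5, and Rbm20 of striated muscle. Esrp1 read 11.12, 11.64, 11.94, 12.04, 12.09 and 12.11 over the 6 embryonic days and 12.44 in the adult, lowest at E13.5 and highest in the adult, with a slope of 0.18 per day (SE 0.040, adjusted p = 0.0214). The summed epithelial markers and those of neurons and glia went up over the embryonic arrays, as given above. Their part in the Esrp and Rbfox results was not tested. Tia1, a binder of uridine-rich introns, fell (−0.22 per day, SE 0.033, adjusted p = 0.00589), and Qk, known from muscle and glia, was lower in the adult (−1.25, SE 0.31, adjusted p = 0.0325).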

How the data were processed

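RNA of mouse colon was measured on 7 arrays, 1 per stage. The values deposited by the authors are on the log2 scale after RMA, that is, background correction, quantile normalization and a summary of the probes of each set. In the submitters' processing notes the tools are affy 1.22.1 and R 2.9.2. Quantile normalization would hide a shift common to most genes. The number of arrays limits the precision.

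From the deposited log2 values, probe sets that name 1 gene in the platform annotation (34958 of 45101) were kept, 932 that name several genes and 9211 that name none were dropped, and each of 18194 genes was given the median of its probe sets. Symbols were brought up to date by gene identifier with a RefSeq table of GRCm38.p6, where 18033 of 18195 identifiers matched. The members and the lists were chosen with earlier results of these data known.

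limma 3.58.1 in R 4.3.3 (lmFit and eBayes) fitted a slope per embryonic day and an adult term to all 7 arrays, which leaves 4 residual degrees of freedom. The adult term is the adult array minus the level fitted at E18.5, and assumes that the lone adult array varies like the embryonic ones. P-values were adjusted by Benjamini-Hochberg over the 18194 genes and called at 0.05. The fit was also run on all 34958 probe sets and tested on simulated data. No batch is labelled. Genes were named by rule: in each family the 4 largest called slopes, the 3 largest called adult differences of at least 2-fold, calls against the family, the smallest ranges, members of pairs that pass and textbook members. In the other lists the 2 largest called slopes were named. The largest called adult difference was named only for snRNP assembly, SR-related proteins and tissue-type regulators, and that of the other lists is not given. Other genes are given by their levels or calls only. Alternatives were other ways to join probe sets, probe sets without the suffixes _s_at, _x_at and _a_at, and filters on dim values. Further ones were other scalings between arrays, trend and robust settings, other time scales and leaving out each embryonic array. The promoter windows are RefSeq sequences of GRCm38.p6. Tables and figures were made with pandas 2.3.3, numpy 2.4.6 and matplotlib 3.10.9 in Python 3.11.15.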

Additional observations from a re-analysis of the deposited data

How the results depend on the processing

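No paired analysis was possible because each stage has 1 array and no replicates are shared between stages. Of the slopes and adult differences of 37 named genes under the alternatives, 891 kept their direction and their side of the threshold, 92 lost a call, 14 gained one and 23 changed sign, and the cause was not tested. Lsm3, Lsm6, Lsm8, Srsf10 and Srsf6 were called falling in all 14 alternatives of the slope fit. With 1 embryonic array left out, fewer points stand behind each line, and the genes that fell numbered between 14 and 39 (17 for E13.5; Srsf 4 to 7, Hnrnp 3 to 12 with 5 for E17.5, Sf3 1 to 7, Snrp 0 to 6, Lsm 4 to 7), none rose, those lower in the adult numbered 14 to 29, those at least 2-fold lower 2 to 4 and those higher 0 to 2. In the other lists 21 to 69 genes fell (24 for E14.5) and 3 to 6 rose, and 0 to 3 pairs passed. On the brightest probe set, 18 genes fell (Srsf 3, Sf3 3, Snrp 1), 1 rose and 3 pairs passed. With the mean over probe sets, 1 gene rose, which was Snrpn, whose own values are unchanged in that setting. Without suffixed probe sets, 3 Sf3 and 3 Snrp genes fell, 0 were higher in the adult and 10 dipped at E15.5. Hnrnpm, Lsm2, Sf3a2, Snrpa1, Snrpb, Snrpe and Srsf5 have only suffixed probe sets and were not measured there, so these counts are over fewer genes. With the shift of each array by level removed, 1 gene rose and 2 were higher in the adult. A slope through the rank order of the 7 stages called 8 Snrp genes, and the average of the last 2 embryonic arrays as reference put 6 genes at least 2-fold lower in the adult. Leaving out probe sets with a mean level under 6, chosen after seeing the data, left 1 pair. The rank correlations kept their count of 28 within 27 to 35 with 1 array left out.

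Most values that changed sign were near 0. On the brightest probe set the slope became 0.026 for Sf3b1 and −0.064 for Srsf2, and the adult difference −0.51 for Hnrnpu and −0.22 for Sf3b2. With the mean over probe sets, the slope of Srsf2 became −0.018 and the adult difference −0.084 for Hnrnpu and −0.15 for Sf3b2. Without the suffixed probe sets, the slope of Srsf2 became −0.067 and the adult difference 0.082 for Hnrnpr, −0.30 for Sf3b2, 0.20 for Snrpb2 and 0.081 for Srsf2. With arrays centred on their medians, the slope became −0.0054 for Lsm11 and −0.0055 for Srsf12. With the shift by level removed, the slope of Hnrnpul1 became 0.015 and the adult difference 0.056 for Sf3b1 and 0.044 for Snrpb. The slope became 0.0037 for Hnrnpa0 and −0.0083 for Srsf12 without E13.5, 0.0024 for Hnrnpul1 without E15.5, 0.00061 for Hnrnpul1 and −0.0038 for Lsm11 without E17.5, and 0.0064 for Hnrnpul1 without E18.5.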
